A study of Mus musculus with 11 samples.

Results

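The mRNAs of 8 sensory neuropeptide genes, *Calca*, *Calcb*, *Tac1*, *Adcyap1*, *Sst*, *Nppb*, *Nmb* and *Cartpt*, were measured by RNA-Seq in dorsal root ganglia (DRGs) of 11 mice. They were taken by gene name from a table of 36670 genes, and all 8 passed the filter on low values that left 15087 genes for testing. The WT mice comprised 3 controls and 3 animals given paclitaxel (PTX), and the *Gpr37l1* KO mice comprised 3 controls and 2 given PTX, with ganglia taken 4 weeks after the drug. PTX stabilizes microtubules, treats cancers and can cause painful neuropathy, while *Gpr37l1* encodes an orphan GPCR of satellite glial cells, which wrap the cell bodies of sensory neurons. The samples cross the loss of this receptor with PTX treatment. KO mice carried the tm1Lex allele of *Gpr37l1*, a knockout that is not limited to glia, and they and their WT littermates were kept on a C57BL/6 background. The study describes its mice as adult and calls the WT mice without PTX naive, the labels call the mice without PTX controls and mark them with an unexplained letter V, and the sources used here do not say which PTX regimen preceded the RNA-Seq. Each library was treated as 1 mouse and held RNA of whole DRGs, in which neurons, glia, vessels and connective tissue were sequenced together. In each group, replicate 3 was labelled female and the other mice were labelled male.

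Peptidergic sensory neurons make a prohormone, cleave it in the secretory pathway and pack the active peptide into dense-core vesicles. The peptides are released in the spinal dorsal horn, where they act on second-order neurons, and in skin and other targets, where they dilate vessels and recruit immune cells. Nociceptors that detect heat and tissue damage are known for *Calca* and *Tac1*, and a separate small class of neurons that signals itch is known for *Sst* and *Nppb*. *Calca* encodes calcitonin and, by alternative splicing in neurons, the alpha form of calcitonin gene-related peptide (CGRP), and *Calcb* encodes the beta form. *Tac1* encodes substance P and neurokinin A, *Adcyap1* encodes PACAP, *Sst* encodes the inhibitory peptide somatostatin, *Nppb* encodes B-type natriuretic peptide, *Nmb* encodes neuromedin B, and *Cartpt* encodes the CART peptides.

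The labels were checked against the expression of genes that depend on them. *Gpr37l1* was measured at 14.6 to 35.7 FPKM (fragments scaled for gene length and library size) in the 6 WT libraries. The 3 KO control libraries held 0.21 to 0.29 FPKM of it, and KO PTX 2 and KO PTX 3 held 0.60 and 1.15 FPKM. All 12 sensory neuron markers and all 5 satellite glia markers were above 0 in every library, and the neuron markers summed to 4921 to 5766 FPKM. Summed markers of other tissue ranged from 1232 to 2168 FPKM for myelinating Schwann cells, 3.16 to 554 FPKM for skeletal muscle, 95.5 to 206 FPKM for fibroblasts, 17.4 to 21.8 FPKM for endothelium and 71.5 to 294 FPKM for red cells, and their part in the results was not tested. KO control 3, which is labelled female, had neither a female nor a male pattern of sex-linked genes. Its *Xist* level was 0.05 FPKM, against 8.12 to 9.13 FPKM in the other 3 mice labelled female and at most 0.29 FPKM in the mice labelled male, while its level of the Y-linked *Ddx3y* was 0.02 FPKM, against 5.62 to 9.84 FPKM in the mice labelled male. Its *Eif2s3x* level, 25.7 FPKM, lay among those of the males (20.1 to 27.8 FPKM) and below those of the other females (43.4 to 45.6 FPKM). The edgeR, DESeq2 and exact tests of the 8 genes by labelled sex are therefore given with and without this mouse. The comparisons within each group and the fit scaled to sensory neuron markers include it.

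WT control 2 and KO PTX 3 stood apart in other ways. WT control 2 had 130.3 FPKM of *Gal*, the galanin gene, against 14.9 to 49.5 FPKM in the other libraries, and 4.46 FPKM of the neuronal transcription factor gene *Sox11*, against 0.79 to 2.07 FPKM. KO PTX 3 had the highest sum over 8 markers of central glia and myelin (22.5 FPKM, with none of the 8 at 0, against 2.27 to 9.92 FPKM elsewhere) and over 6 markers of spinal cord neurons (5.93 FPKM, with none of the 6 at 0, against 0.19 to 1.57 FPKM). Total estimated counts per library ran from 52735600 to 80348700, and the members held from 145 counts (*Sst* in 1 library) to 134482 counts (*Calca* in 1 library).

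All 8 genes are protein-coding genes, and their coordinates are given on GRCm38 as the deposited table lists them. *Calca* (ENSMUSG00000030669) lies on the minus strand of chromosome 7 at 114631478 to 114636357, and *Calcb* (ENSMUSG00000030666) lies on the plus strand of the same chromosome at 114718643 to 114723365. *Tac1* (ENSMUSG00000061762) is on chromosome 6 at 7554879 to 7562977, *Adcyap1* (ENSMUSG00000024256) on chromosome 17 at 93199017 to 93206537, and *Sst* (ENSMUSG00000004366) on chromosome 16 at 23889573 to 23890958. *Nppb* (ENSMUSG00000029019) is on chromosome 4 at 147985788 to 147987205, *Nmb* (ENSMUSG00000025723) on chromosome 7 at 80902227 to 80905076, and *Cartpt* (ENSMUSG00000021647) on chromosome 13 at 99898489 to 99901091. The 5' end of *Nmb* overlaps *Sec11a*, which is transcribed from the same strand, so reads in the overlap could be assigned to either gene. *Calca* and *Calcb* are paralogs, but only 12 of 1634 windows of 50 bases in the *Calca* transcripts occurred in *Calcb*, and none of 75 bases did.

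The promoters of the members that varied together across mice (below, *Calca*, *Tac1* and *Adcyap1* in 1 direction and *Sst* in the other) are shown for their cyclic AMP response elements, the sites where CREB-family factors are known to bind. Each line holds the 250 bases before the RefSeq start site on GRCm38.p6, in the direction of transcription. For *Tac1* and *Sst* that start site lies inside the gene as the deposited table draws it. Capitals mark matches on either strand to TGACGTCA, to its variant TGACGCA or, where neither covers it, to the half-site TGACG.
Calca (chr7:114636358-114636607, minus strand): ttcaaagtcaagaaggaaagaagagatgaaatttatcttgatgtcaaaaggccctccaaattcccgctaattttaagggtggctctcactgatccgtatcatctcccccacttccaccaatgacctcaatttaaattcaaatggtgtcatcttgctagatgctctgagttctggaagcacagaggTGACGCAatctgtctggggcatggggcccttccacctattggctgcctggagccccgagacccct
Tac1 (chr6:7554811-7555060, plus strand): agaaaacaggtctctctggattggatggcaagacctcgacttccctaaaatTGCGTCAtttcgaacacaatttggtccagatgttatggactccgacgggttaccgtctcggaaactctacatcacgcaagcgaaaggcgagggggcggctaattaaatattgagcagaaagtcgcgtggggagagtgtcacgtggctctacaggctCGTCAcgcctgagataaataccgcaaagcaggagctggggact
Adcyap1 (chr17:93198767-93199016, plus strand): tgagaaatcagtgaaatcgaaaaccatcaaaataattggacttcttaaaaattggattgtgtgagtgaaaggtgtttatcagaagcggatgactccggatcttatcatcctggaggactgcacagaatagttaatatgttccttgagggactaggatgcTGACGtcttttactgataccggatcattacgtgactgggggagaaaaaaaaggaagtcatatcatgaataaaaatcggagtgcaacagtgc
Sst (chr16:23890845-23891094, minus strand): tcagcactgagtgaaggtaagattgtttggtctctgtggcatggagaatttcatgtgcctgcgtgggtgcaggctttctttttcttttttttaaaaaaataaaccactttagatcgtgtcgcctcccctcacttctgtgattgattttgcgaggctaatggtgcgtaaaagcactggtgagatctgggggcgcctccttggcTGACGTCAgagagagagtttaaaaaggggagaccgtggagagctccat
*Sst* held the full palindrome TGACGTCA starting 48 bases before its start site, and *Calca* held TGACGCA starting 65 bases before it. *Tac1* held TGACGCA on the opposite strand, printed as TGCGTCA, starting 199 bases before its start site, and a lone half-site 43 bases before it, and *Adcyap1* held a lone half-site at 91 bases before the upstream of its 2 listed starts. *Cartpt* also held TGACGTCA, while *Nppb* and *Nmb* held none of these letters. For the shares, windows of 250 bases before to 50 after each start site were searched. In them, 5 of the 7 members with a promoter entry held TGACG, against 20.8% of 32851 mouse promoters, 2 held TGACGTCA, against 1.79%, and 2 held TGACGCA, against 2.12%. A match is a match of letters, and binding was not measured.

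Levels spanned a wide range between the members. *Calca* was the most abundant, at 692 ± 122 FPKM (mean ± SD, n = 11 mice), and ranked 26th to 48th among all genes of a library. *Nmb* followed at 97.8 ± 11.4 FPKM, *Calcb* at 81.6 ± 8.10 FPKM and *Tac1* at 63.7 ± 13.2 FPKM. *Adcyap1* was at 28.5 ± 7.34 FPKM. *Cartpt* (11.6 ± 3.85 FPKM), *Nppb* (11.1 ± 1.73 FPKM) and *Sst* (8.44 ± 3.93 FPKM) were the lowest. *Calca* exceeded *Nmb* in all 11 libraries by 6.12 to 10.3 times, *Nmb* exceeded *Calcb* in 11 of 11, *Calcb* exceeded *Tac1* in 10 of 11, *Tac1* exceeded *Adcyap1* in 11 of 11 and *Adcyap1* exceeded *Cartpt* in 11 of 11. *Cartpt* and *Nppb* could not be ordered, since *Cartpt* was the higher in 6 of 11 libraries. *Calca* alone made up 67.1% to 74.0% of the summed FPKM of the 8 genes. *Calcb*, *Nmb* and *Nppb* varied least between mice, with coefficients of variation of 9.92%, 11.7% and 15.5%, and *Sst* varied most, at 46.5%.

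**Figure D1:**
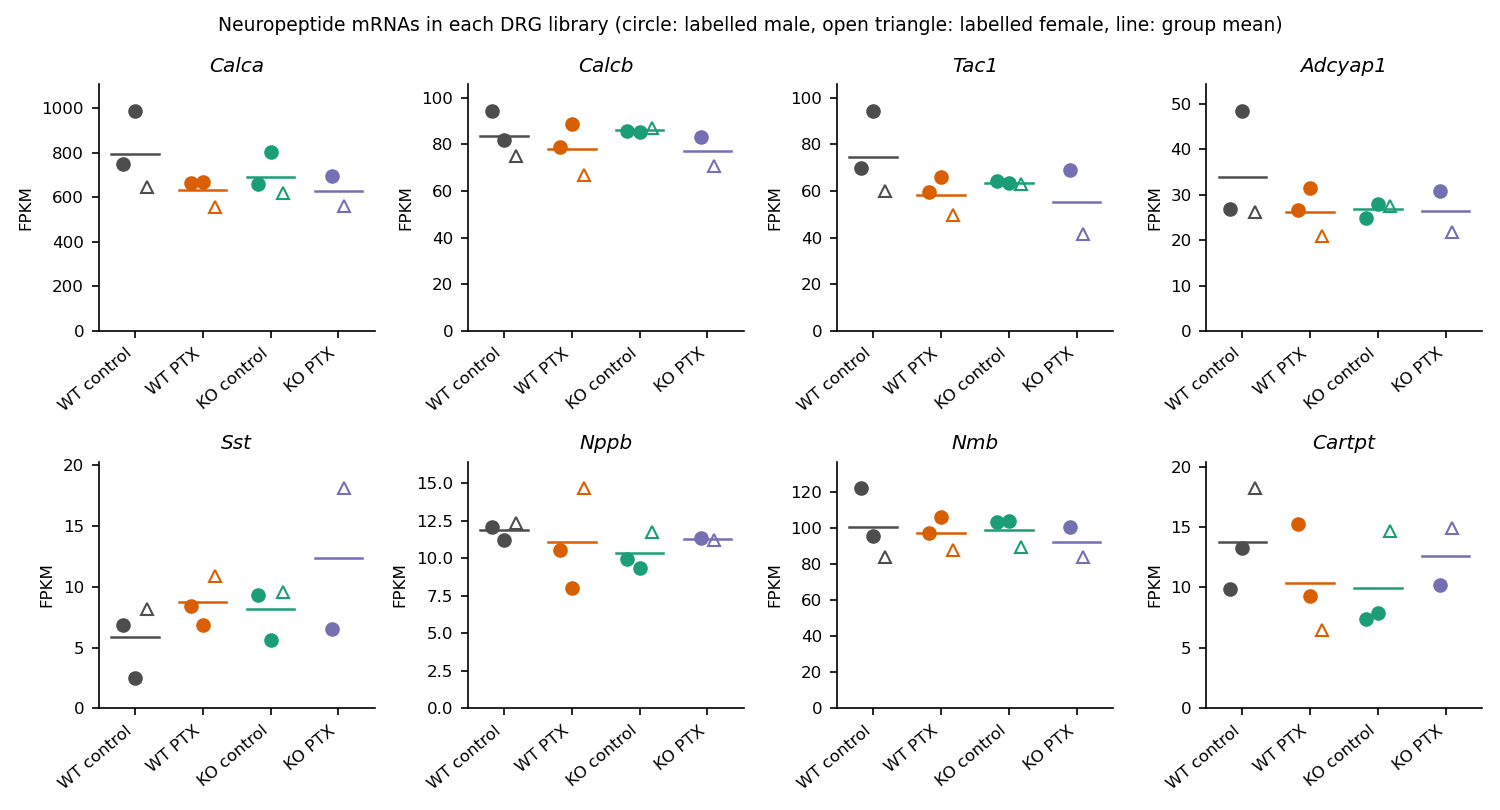
FPKM (y axis, from 0) of each of the 8 genes in each of the 11 libraries, by group (x axis), with filled circles for mice labelled male, open triangles for mice labelled female and a line at each group mean. WT control 2 gives the highest *Calca* (988 FPKM), *Tac1* (94.3 FPKM) and *Adcyap1* (48.4 FPKM) and the lowest *Sst* (2.47 FPKM).

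The first comparison asked how peptide mRNAs differed in WT mice 4 weeks after PTX. *Calca* was measured at 749, 988 and 647 FPKM in the WT controls and at 666, 669 and 557 FPKM in the WT PTX mice. The groups overlapped, because WT control 3, labelled female, lay below the 2 PTX mice labelled male. By labelled sex, the males had 749 and 988 FPKM in the controls and 666 and 669 FPKM after PTX. The females had 647 and 557 FPKM. The edgeR log2 fold change was -0.33 ± 0.11 (SE), a ratio of 0.797, and its adjusted p was 0.288. *Tac1* was measured at 70.0, 94.3 and 59.8 FPKM in the controls and at 59.8, 66.0 and 49.5 FPKM after PTX. The groups overlapped again, with the control female (59.8 FPKM) below a PTX male (66.0 FPKM). The log2 fold change was -0.35 ± 0.13 (edgeR adjusted p = 0.332). *Adcyap1* was measured at 26.9, 48.4 and 26.3 FPKM in the controls and at 26.5, 31.4 and 20.9 FPKM after PTX. Its log2 fold change was -0.37 ± 0.19 (edgeR adjusted p = 0.424), and 1 control, WT control 2, lay above all PTX mice while the other 2 lay within their range. *Sst* was measured at 6.83, 2.47 and 8.18 FPKM in the controls and at 8.44, 6.82 and 10.9 FPKM after PTX, with a log2 fold change of 0.62 ± 0.36 (edgeR adjusted p = 0.457). In whole ganglia, fewer neurons of a type and less RNA per neuron cannot be told apart.

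The fold changes of *Calcb*, *Nmb* and *Nppb* were smaller than those of these 4 genes. *Calcb* was at 94.4, 81.9 and 75.1 FPKM in the WT controls and at 79.1, 88.6 and 66.9 FPKM after PTX. *Nmb* was at 122, 95.8 and 84.1 FPKM in the controls and at 97.6, 106 and 87.7 FPKM after PTX. *Nppb* was at 12.1, 11.2 and 12.3 FPKM in the controls and at 10.6, 8.02 and 14.7 FPKM after PTX, and *Cartpt* was at 9.86, 13.3 and 18.2 FPKM in the controls and at 15.2, 9.26 and 6.51 FPKM after PTX. The ranges of the groups overlapped for all 4 genes. The log2 fold change of *Cartpt* was -0.34 ± 0.33, with a 95% confidence interval of -1.08 to 0.39. It was 0.078 without WT PTX 3 and -0.80 without WT PTX 1. The intervals were -0.30 to 0.08 for *Calcb*, -0.26 to 0.16 for *Nmb* and -0.50 to 0.25 for *Nppb*.

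None of the 8 genes passed an adjusted p of 0.05 in edgeR, and 0.00663% of all tested genes did. At an unadjusted p under 0.05, edgeR passed *Calca* and *Tac1*, against 13.5% of all genes. DESeq2, which called 2.05% of all genes, called none of the members, with an adjusted p of 0.0783 for *Calca* and 0.133 for *Tac1*. None of the members had FPKM ranges that did not overlap, against 14.2% of all genes. The size of the differences rested in part on WT control 2, while their direction did not. Without it, the log2 fold change was -0.20 for *Calca*, -0.21 for *Tac1*, -0.07 for *Adcyap1* and 0.29 for *Sst*, and without WT control 1 it was -0.40, -0.44, -0.54 and 1.04. Macrophage markers had lower values after PTX, 6 of 7 at an unadjusted p under 0.05 and none at an adjusted one, against 13.5% of all genes, and their part was not tested. All 7 were above 0 in every library, and they summed to 60.6 to 77.9 FPKM in WT controls and 41.0 to 55.0 FPKM after PTX. Skeletal muscle markers also had lower values after PTX, with a median log2 fold change of -2.73 over 8 genes, none at an unadjusted p under 0.05, and they summed to 492.9, 14.7 and 438 FPKM in WT controls and 47.0, 167 and 3.16 FPKM after PTX, so that WT control 2 lay with the PTX mice. Over both genotypes 6 of the 8 had an unadjusted p under 0.05, against 9.36% of all genes. Their part was not tested.

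In KO mice, the PTX comparison set 2 PTX mice against 3 controls. The KO controls held 658, 801 and 619 FPKM of *Calca*, and the PTX mice held 697 and 559 FPKM. For *Tac1* the KO controls held 64.1, 63.4 and 63.2 FPKM, and the PTX mice held 68.9 and 41.6 FPKM. For both genes, 1 PTX mouse lay within or above the controls and KO PTX 3 lay below them. The log2 fold changes were -0.10 ± 0.12 for *Calca* and -0.19 ± 0.15 for *Tac1*. That of *Calca* was -0.18 without KO control 1 and -0.02 without KO control 2. *Adcyap1* levels were 25.0, 27.9 and 27.6 FPKM in KO controls against 30.8 and 21.8 FPKM after PTX, and the 95% confidence interval of its log2 fold change ran from -0.48 to 0.48. *Calcb* was at 85.7, 85.5 and 86.8 FPKM and at 83.2 and 70.7 FPKM, the only gene of the 8 whose KO groups did not overlap, against 21.6% of all genes. Its log2 fold change was -0.14 ± 0.10, and it was -0.04 without KO control 3. Fibroblast markers had lower values in the same comparison, 4 of 5 at an unadjusted p under 0.05, against 4.32% of all genes, with a median log2 fold change of -0.71 and sums of 162 to 206 FPKM in KO controls and 95.5 and 169 FPKM after PTX. Central glia markers had higher values, 3 of 4 tested at an unadjusted p under 0.05, with a median log2 fold change of 2.60. The part of both was not tested.

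*Sst* levels were 9.34, 5.63 and 9.59 FPKM in KO controls against 6.56 and 18.1 FPKM after PTX. The 18.1 FPKM belonged to KO PTX 3, the library with the highest sums of central glia and spinal cord neuron markers, and somatostatin is also made by neurons of the spinal dorsal horn. Without that mouse the log2 fold change of *Sst* was -0.13 in place of 0.34, and that of *Tac1* was 0.01 in place of -0.19. Without KO PTX 2 they were 0.80 and -0.42, and without KO control 3 that of *Tac1* was -0.02. The other 3 libraries with raised spinal cord neuron sums, WT control 1 (1.46 FPKM), WT PTX 3 (1.48 FPKM) and KO PTX 2 (1.57 FPKM), had 6.83, 10.9 and 6.56 FPKM of *Sst*, and the 7 libraries with sums of 0.19 to 0.43 FPKM had 2.47 to 9.59 FPKM. The part of spinal tissue in the *Sst* level was not tested. *Nppb* levels were 9.93, 9.35 and 11.8 FPKM in KO controls against 11.4 and 11.2 FPKM after PTX. *Nmb* was at 103, 104 and 89.4 FPKM and at 101 and 84.2 FPKM, and *Cartpt* was at 7.41, 7.84 and 14.7 FPKM and at 10.2 and 14.9 FPKM. None of the 8 genes was called by edgeR at an adjusted p under 0.05 (0.00663% of all genes) or at an unadjusted p under 0.05 (4.32%), and DESeq2, which called 0.192% of all genes, called none.

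**Figure D2:**
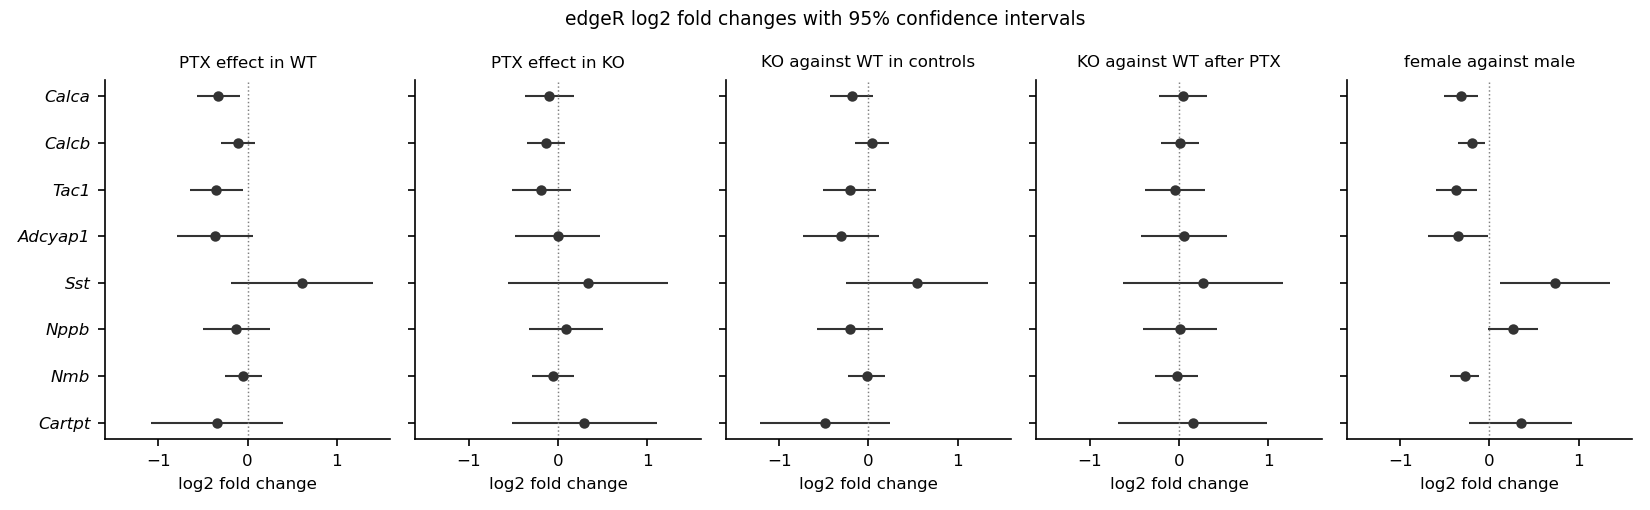
edgeR log2 fold changes (x axis) of the 8 genes (rows) in 5 comparisons, with points for the estimates and bars for 95% confidence intervals. The intervals of *Calca* and *Tac1* lie below 0 for PTX in WT mice and, with those of *Calcb*, *Nmb* and *Adcyap1*, for labelled sex, where that of *Sst* lies above 0, but no member had an edgeR adjusted p under 0.05.

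The loss of *Gpr37l1* was compared in controls and after PTX. In controls, the log2 fold change of KO over WT was -0.19 ± 0.11 for *Calca*, -0.21 ± 0.13 for *Tac1*, -0.31 ± 0.19 for *Adcyap1*, 0.54 ± 0.36 for *Sst* and -0.48 ± 0.33 for *Cartpt*. It was 0.04 ± 0.09 for *Calcb*, -0.02 ± 0.09 for *Nmb* and -0.21 ± 0.17 for *Nppb*. These values share the WT controls with the PTX comparison above, and without WT control 2 they were -0.05 for *Calca*, -0.07 for *Tac1*, -0.02 for *Adcyap1* and 0.22 for *Sst*. Without KO control 3, the mouse of doubtful sex label, they were -0.36 for *Tac1*, -0.49 for *Adcyap1* and -0.79 for *Cartpt*. After PTX, the log2 fold changes of KO over WT were 0.04 ± 0.12 for *Calca*, 0.01 ± 0.10 for *Calcb*, -0.04 ± 0.15 for *Tac1* and -0.03 ± 0.11 for *Nmb*. For *Sst* the value after PTX was 0.27 ± 0.40, with a 95% confidence interval of -0.63 to 1.17, and it was -0.21 without KO PTX 3 and 0.72 without KO PTX 2. That of *Tac1* was 0.15 and -0.28 without the same mice.

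No member was called between genotypes. edgeR called 0.00663% of all genes at an adjusted p under 0.05 in controls and 0.0133% after PTX, and at an unadjusted p it passed 7.54% and 3.55%. The FPKM ranges of KO and WT mice overlapped for all 8 genes in both comparisons, while they did not overlap for 9.28% of all genes in controls and 20.2% after PTX. Over both treatments, 6 WT and 5 KO mice had 713 ± 148 and 667 ± 90.7 FPKM of *Calca* (exact two-sided permutation test, p = 0.636) and 7.27 ± 2.79 and 9.85 ± 4.94 FPKM of *Sst* (exact permutation p = 0.385). The edgeR fit over both treatments called 0.0133% of all genes and passed 3.75% at an unadjusted p, none of them members. DESeq2 called no member in these comparisons, and 0.278% of all genes in controls, 0.0663% after PTX and 0.186% over both treatments. In KO over WT controls, 2 of 7 macrophage markers were lower and 2 of 5 endothelium markers higher at an unadjusted p under 0.05, against 7.54% of all genes. After PTX, 2 of 4 tested central glia markers were higher at that threshold, against 3.55%, with a median log2 fold change of 2.49. Their part was not tested.

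The PTX effect was also set against genotype directly. The difference between the log2 fold changes in KO and in WT mice was 0.23 ± 0.16 for *Calca*, 0.17 ± 0.20 for *Tac1*, 0.36 ± 0.29 for *Adcyap1*, 0.64 ± 0.50 for *Cartpt*, 0.21 ± 0.25 for *Nppb*, -0.28 ± 0.54 for *Sst*, -0.03 ± 0.13 for *Calcb* and -0.01 ± 0.14 for *Nmb*. Without WT control 2 it was 0.09 for *Calca*, 0.02 for *Tac1*, 0.06 for *Adcyap1* and 0.09 for *Sst*. For *Tac1* it was -0.06 without KO PTX 2 and 0.37 without KO PTX 3, and for *Cartpt* it was 0.18 without WT PTX 3 and 1.08 without WT PTX 1. That of *Nppb* ran from 0.05 without KO PTX 2 to 0.45 without WT PTX 3. That of *Sst* ran from -0.77 without WT control 1 to 0.20 without KO PTX 2. None of the 8 differences was called in edgeR, where 0.00663% of all genes were called and 6.30% had an unadjusted p under 0.05, or in DESeq2, which called 0.0795%. The 95% confidence interval for *Calca* ran from -0.13 to 0.59. Of 4 tested central glia markers, 3 had positive differences at an unadjusted p under 0.05, with a median of 3.42 over the 4. Of 7 macrophage markers, 2 did, with a median of 0.30 over the 7. The part of both was not tested. Over both genotypes, *Calca* was at 744 ± 138 FPKM in 6 controls and at 630 ± 66.3 FPKM in 5 PTX mice (exact two-sided permutation test, p = 0.0996), and *Tac1* at 69.1 ± 12.8 and 57.1 ± 11.4 FPKM (exact permutation p = 0.152). In edgeR the log2 fold changes over both genotypes were -0.21 ± 0.08 and -0.27 ± 0.10. These 2 genes had an unadjusted p under 0.05 (0.0269 and 0.0235), against 9.36% of all genes, and adjusted p of 0.493 and 0.475, and 0.0133% of all genes were called. DESeq2 called 0.829% of all genes and no member there.

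A difference that recurred in all 4 groups followed the labelled sex. *Calca*, *Tac1* and *Nmb* were lower in the mouse labelled female than in every male of its own group in 4 of 4 groups. Of all tested genes, 2.28% showed this pattern. The ratio of the female to the mean of its males was 0.746, 0.835, 0.849 and 0.802 for *Calca* in WT control, WT PTX, KO control and KO PTX mice. For *Nmb* it was 0.771, 0.860, 0.862 and 0.836, and for *Tac1* it was 0.728, 0.787, 0.991 and 0.604. *Sst* went the other way and was higher in the female than in every male in 4 of 4 groups, with ratios of 1.76, 1.43, 1.28 and 2.76, a pattern that 4.18% of all genes showed. The summed sensory neuron markers were also lower in the female than in every male in 4 of 4 groups, at 4921 to 5038 FPKM in the 4 females and 5114 to 5766 FPKM in the 7 males. A sum is weighted to the most abundant markers. Taken singly, the 12 markers had a median edgeR log2 fold change of female over male of -0.03. At an unadjusted p under 0.05, 1 was higher and 1 was lower, against 8.44% of all genes. With the libraries scaled to these markers in place of TMM, the edgeR log2 fold changes of female over male mice were -0.25 for *Calca*, -0.30 for *Tac1*, -0.21 for *Nmb*, -0.13 for *Calcb*, -0.28 for *Adcyap1* and 0.80 for *Sst*, with adjusted p from 0.361 to 0.554. Under that scaling *Calcb* and *Adcyap1* no longer had an unadjusted p under 0.05, and *Nppb* (0.33) did. Since replicate 3 was the female in each group, sex and any other feature of replicate number 3 cannot be told apart.

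In the edgeR fit, the log2 fold change of female over male mice was -0.32 ± 0.09 for *Calca*, -0.37 ± 0.10 for *Tac1*, -0.28 ± 0.07 for *Nmb*, -0.20 ± 0.07 for *Calcb* and -0.35 ± 0.15 for *Adcyap1*. It was 0.74 ± 0.28 for *Sst*, 0.27 ± 0.13 for *Nppb* and 0.35 ± 0.26 for *Cartpt*. In edgeR, 6 of the 8 members, all but *Nppb* and *Cartpt*, had an unadjusted p under 0.05, against 8.44% of all genes. None had an adjusted p under 0.05, with values from 0.448 to 0.731, and 0.0398% of all genes did. DESeq2, which called 0.822% of all genes, called *Calca* (adjusted p = 0.0229) and *Tac1* (adjusted p = 0.0318). On FPKM, 4 females and 7 males had 596 ± 44.8 and 747 ± 118 FPKM of *Calca* (exact two-sided permutation p = 0.00606) and 86.3 ± 2.62 and 104 ± 8.73 FPKM of *Nmb* (exact permutation p = 0.00606). For *Sst* they had 11.7 ± 4.43 and 6.58 ± 2.20 FPKM (exact permutation p = 0.0242). The exact permutation p was 0.0182 for *Tac1*, 0.0424 for *Calcb* and *Nppb*, 0.0545 for *Adcyap1* and 0.212 for *Cartpt*. In all, 32 such tests were run, of which 8 left out KO control 3.

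KO control 3 was the mouse labelled female whose *Xist* and *Eif2s3x* levels lay with the males while its Y-linked genes were near 0. Its *Tac1* level of 63.2 FPKM stood beside 64.1 and 63.4 FPKM in the males. In that group *Adcyap1* of the female lay between the males, and *Calcb* lay above both. Without this mouse, the edgeR log2 fold changes of female over male were -0.34 for *Calca*, -0.49 for *Tac1*, -0.50 for *Adcyap1*, -0.27 for *Calcb*, -0.29 for *Nmb* and 0.89 for *Sst*, with adjusted p from 0.295 to 0.433. That of *Cartpt* was 0.12 in place of 0.35, and that of *Nppb* stayed at 0.27. Without WT PTX 3, that of *Cartpt* was 0.70 and that of *Nppb* was 0.10. Without KO control 3, the same 6 members as in the full edgeR fit had an unadjusted p under 0.05, against 10.4% of all genes. DESeq2 without this mouse called 1.54% of all genes and 3 members, *Tac1* (adjusted p = 0.000912), *Adcyap1* (adjusted p = 0.0463) and *Calcb* (adjusted p = 0.0486), while *Calca* had an adjusted p of 0.053. With 3 females against 7 males, the exact two-sided permutation p was 0.0167 for *Calca*, *Nmb* and *Calcb*, the smallest this design allows, 0.0333 for *Tac1* and *Adcyap1* and 0.05 for *Sst*. It was 0.0667 for *Nppb* and 0.35 for *Cartpt*. These exact tests ignored the groups. Among the 3 females, WT PTX 3 and KO PTX 3 had been given PTX, and among the 7 males WT PTX 1, WT PTX 2 and KO PTX 2 had, so labelled sex and PTX were partly mixed. Without KO PTX 3, the log2 fold change of *Sst* was 0.54, and without WT control 2 that of *Calca* was -0.27.

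**Figure D3:**
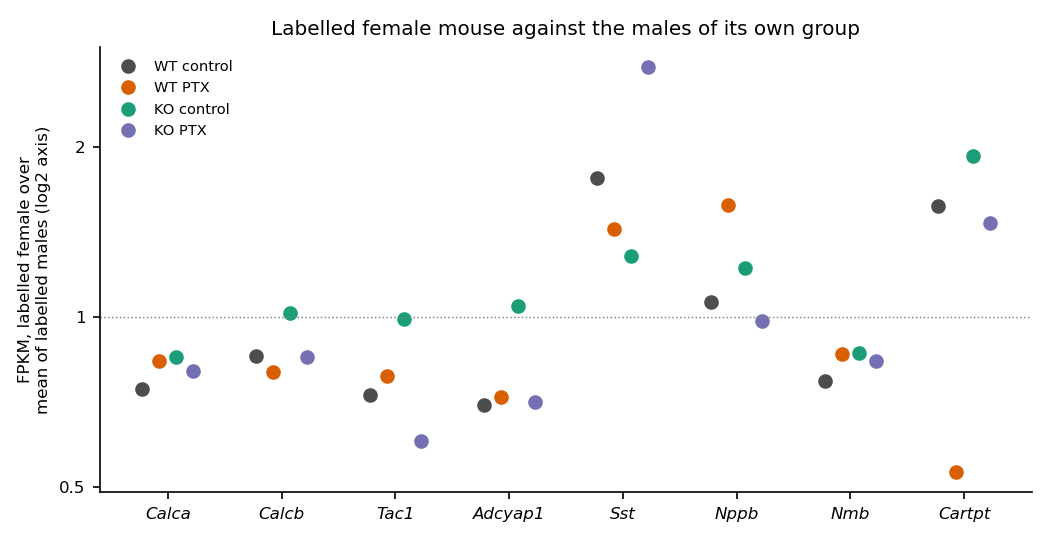
FPKM of the mouse labelled female divided by the mean of the mice labelled male in its own group (y axis, log2 scale), for each of the 8 genes (x axis) and 4 groups (colours; KO PTX has 1 male). All 4 points of *Calca* and *Nmb* lie below 1, between 0.746 and 0.862, and all 4 points of *Sst* lie above 1, between 1.28 and 2.76.

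Some members also varied together from mouse to mouse, and the values over all libraries include any differences between groups and labelled sexes. *Calca*, *Tac1* and *Adcyap1* were high in the same mice, and *Sst* was low in them. Over the 11 libraries, on log2 of TMM-scaled CPM (counts per library size), Pearson's r between *Calca* and *Tac1* was 0.88 (Spearman's rho 0.90, permutation p = 0.00037 and 0.00034), between *Tac1* and *Adcyap1* 0.90 (rho 0.87, permutation p = 0.00034 and 0.00076) and between *Calca* and *Adcyap1* 0.87 (rho 0.85, permutation p = 0.00114 and 0.00172). Between *Calca* and *Sst* it was -0.92 (rho -0.95, permutation p = 1e-05, the smallest that the permutations can give, and 3e-05), between *Tac1* and *Sst* -0.95 (rho -0.84, permutation p = 0.00019 and 0.00241) and between *Adcyap1* and *Sst* -0.92 (rho -0.89, permutation p = 7e-05 and 0.00059). These were 6 of 28 pairs computed, and all values of a library share its scaling. Of 11920 other genes, none had a more negative r with *Sst* than *Tac1* did, and 6 had one at least as negative as that of *Calca*. For *Adcyap1* with *Sst* the number was 8. With *Calca*, 97 genes had an r at least as large as that of *Tac1*, and 117 as that of *Adcyap1*. With *Tac1*, 23 had an r at least as large as that of *Adcyap1*.

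With each of the 11 libraries left out in turn, r ran from -0.95 to -0.84 for *Calca* and *Sst*, from -0.97 to -0.91 for *Tac1* and *Sst* and from -0.96 to -0.83 for *Adcyap1* and *Sst*. It ran from 0.78 to 0.92 for *Calca* and *Tac1*, from 0.83 to 0.94 for *Tac1* and *Adcyap1* and from 0.69 to 0.92 for *Calca* and *Adcyap1*, and WT control 2 was the library whose omission gave the weakest value in all 6 pairs. Without the 2 libraries farthest from the median of the first gene, r was -0.82 for *Calca* and *Sst*, -0.75 for *Tac1* and *Sst*, -0.87 for *Adcyap1* and *Sst*, 0.88 for *Calca* and *Tac1*, 0.82 for *Tac1* and *Adcyap1* and 0.74 for *Calca* and *Adcyap1*. With each group's mean subtracted, the 3 values with *Sst* were -0.92, -0.94 and -0.93. That step leaves differences between the labelled sexes in. Within the 7 mice labelled male the 3 values with *Sst* were -0.93, -0.92 and -0.96, while the 4 females were too few for a value. Within the males r was 0.86 for *Calca* and *Tac1*, 0.92 for *Tac1* and *Adcyap1* and 0.81 for *Calca* and *Adcyap1*. *Calcb* and *Nmb* also varied together, with r = 0.83 over all libraries (rho 0.84, permutation p = 0.00123 and 0.00253) and 0.96 within the males. For the 2 CGRP genes, r was 0.55 (rho 0.61, permutation p = 0.079 and 0.0523) over all libraries, 0.02 within the males and 0.78 without WT control 2. *Calca* and *Nmb* likewise had r = 0.51 over all libraries and 0.79 without that mouse, so how far *Calcb* and *Nmb* stood apart from the first 3 genes rested on WT control 2. *Nppb*, which marks itch neurons together with *Sst*, had r = 0.22 with *Sst* (permutation p = 0.503), and *Cartpt* had values between -0.50 and 0.16 with the other members.

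**Figure D4:**
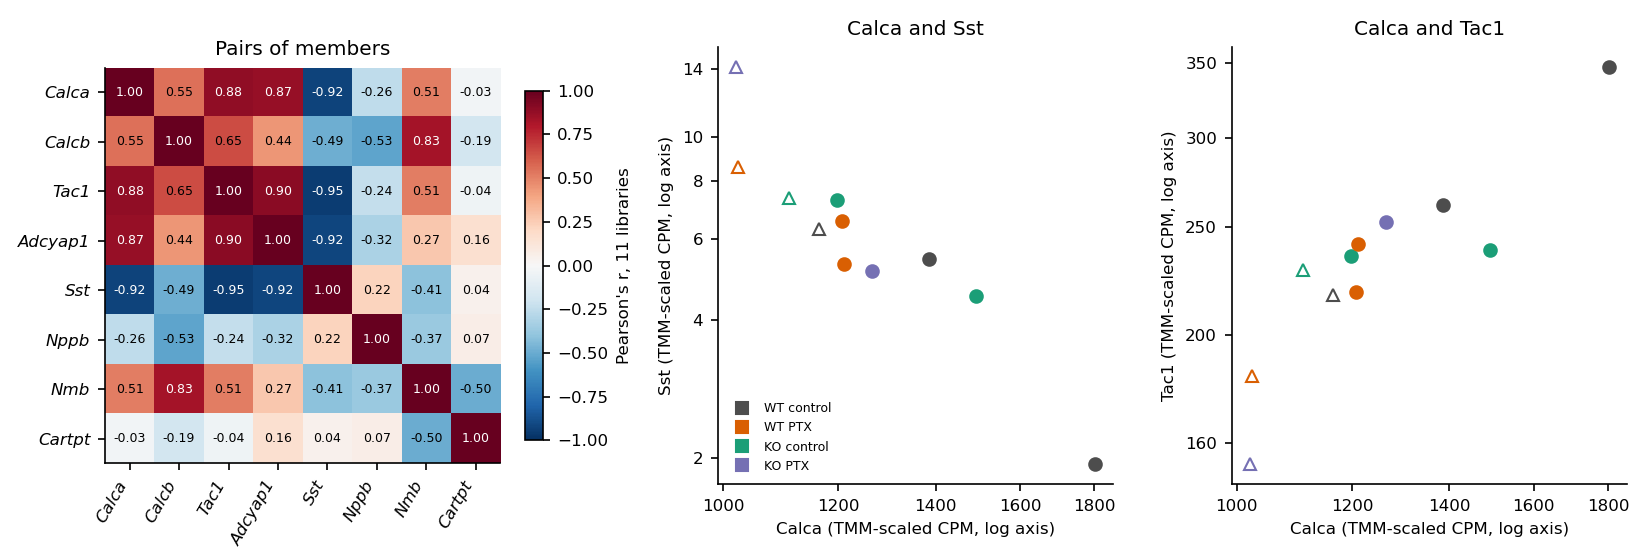
Left, Pearson's r between each pair of the 8 genes over 11 libraries (colour scale from -1 to 1). Middle and right, TMM-scaled CPM of *Sst* and *Tac1* (y axes, log) against *Calca* (x axes, log), 1 point per mouse, coloured by group, with open triangles for mice labelled female; *Sst* falls and *Tac1* rises along *Calca*.

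Among 11921 other genes, those most like each member over the 11 libraries were found by the same r, as a description. The 2 genes nearest to *Calca* were *Myo10*, an unconventional myosin gene (r = 0.98), and *Sox11* (r = 0.98). WT control 2 was the highest library for both, with 5.83 and 4.46 FPKM. *Tac1* was nearest to *Sema4f* and *Pgk1* (r = 0.94 and 0.93), *Adcyap1* to *Gpr3* and *Trim35* (0.96 and 0.94), *Sst* to *Grk2* and *Necab2* (0.96 and 0.94) and *Calcb* to *Rhobtb2* and *Egfl8* (0.95 and 0.94). *Nmb* was nearest to *Emc3* and *Dcxr* (0.91 and 0.91), and the values were lowest for *Nppb* (*Ccdc58* and *Cd164l2*, 0.84 and 0.83) and *Cartpt* (*Cyba* and *Ccnk*, 0.86 and 0.86).

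Genes that act with these peptides were read from lists. No gene of any list was called by edgeR at an adjusted p under 0.05 in any comparison, so their values are given as measured. Of 16 genes for peptide processing and dense-core vesicles, all were tested, and after PTX in WT mice 2 had an unadjusted p under 0.05 with higher values and 1 with a lower value, against 13.5% of all genes in either direction, with a median log2 fold change of 0.07 against -0.01 over all genes. The lower one was *Vgf*, which encodes a secreted granin-like protein, at 74.2, 113 and 33.3 FPKM in the WT controls and 32.8, 31.9 and 25.9 FPKM after PTX (log2 fold change -1.19 ± 0.27, edgeR adjusted p = 0.203). The convertase *Pcsk2* and the vesicle protein gene *Scg3* stayed at 26.2 to 30.4 FPKM and 355 to 434 FPKM over all libraries. Of 18 other neuropeptide genes, 7 were expressed enough to be tested. After PTX in WT mice 2 of the 7 had an unadjusted p under 0.05, both lower, against 13.5% of all genes. Their median log2 fold change was -0.01. *Gal* was at 49.5, 130.3 and 24.1 FPKM in the WT controls and at 21.7, 35.1 and 14.9 FPKM after PTX (-1.40 ± 0.39, edgeR adjusted p = 0.238). The highest of these values, 130.3 FPKM, belonged to WT control 2. *Nts*, the neurotensin gene, was at 5.74 to 7.37 FPKM in the 4 mice labelled female (6.16 to 7.37 FPKM without KO control 3) and at 11.7 to 55.1 FPKM in the 7 males, with a log2 fold change of female over male of -2.08 ± 0.32 (edgeR adjusted p = 0.0883), larger in size than that of any member.

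Of 7 genes known from the same nociceptors as *Calca* and *Tac1*, the median log2 fold change after PTX in WT mice was -0.19 against -0.01 over all genes, and 2 had an unadjusted p under 0.05, both lower, against 13.5% of all genes in either direction. Among them was *Gpx3*, which encodes a glutathione peroxidase, at 42.1, 51.4 and 42.6 FPKM in the WT controls and 38.6, 44.9 and 27.6 FPKM after PTX (-0.31 ± 0.13). The heat-gated channel gene *Trpv1* was at 36.7, 55.5 and 41.9 FPKM in the controls and 40.3, 42.2 and 35.5 FPKM after PTX. Of 6 genes known with *Sst* and *Nppb* in itch neurons, the median was 0.13, and 1 higher and 1 lower gene had an unadjusted p under 0.05, against the same share of all genes. The higher one was the kinase gene *Jak1* (0.20 ± 0.08) and the lower one was *Nts* (-1.09 ± 0.37). The other 4 were *Il31ra* (-0.04 ± 0.25) and *Osmr* (0.20 ± 0.18), which encode the receptor subunits for the itch cytokine IL-31, the leukotriene receptor gene *Cysltr2* (0.13 ± 0.18) and the serotonin receptor gene *Htr1f* (0.13 ± 0.21). Of 21 peptide receptor genes, 9 reached the filter, and after PTX in WT mice 1 of them, *Ramp2*, had an unadjusted p under 0.05 with a higher value, carried by WT PTX 3 (12.3 FPKM, against 3.51 to 4.76 FPKM in the other libraries). That is 1 of 9 receptor genes, against the same 13.5% of all genes. The highest level was that of *Npr2*, a natriuretic peptide receptor gene, at 30.04 to 33.65 FPKM. The CGRP receptor genes *Calcrl* and *Ramp1* were at 1.01 to 1.87 FPKM and 0.23 to 1.18 FPKM, and the substance P receptor gene *Tacr1* was at 0.06 FPKM or less in every library.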

How the data were processed

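RNA was extracted from DRGs, and poly(A) libraries were prepared with a TruSeq stranded mRNA protocol. The submitters' processing notes name cutadapt, FastQC, HISAT2, StringTie and the mm10 build, and their versions are not given in the sources used here. The authors deposited 1 table of 36670 genes with FPKM values, in which the authors corrected each gene for its length and each library for its depth, and estimated counts per gene, deposited by the authors as whole numbers without normalization. Replicate numbers were taken from the sample descriptions. The titles number the 2 KO PTX mice differently, and same-numbered mice are different animals. Nothing says that the samples of a group came from separate cages or litters, so p-values measure the spread between these mice.

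edgeR 4.0.16 in R 4.3.3 was run on the estimated counts with TMM scaling and the quasi-likelihood test, with all 11 libraries in 1 fit and a term for labelled sex. Genes had to average 0.5 FPKM or more, which 15087 did, p-values were adjusted over all of them by the Benjamini-Hochberg method, and the threshold was 0.05. The standard error is the log2 fold change divided by the root of the F statistic. DESeq2 1.42.0 and limma 3.58.1 (on log2 of FPKM plus 1 or plus 0.1) were alternatives, with other filters, scalings, covariates, a replicate block, each library left out and, chosen after seeing the data, male mice alone and DESeq2 and the exact tests without KO control 3. Exact permutation tests compared mean FPKM of pooled mice. Those by labelled sex ignored the groups, and those by genotype or PTX ignored labelled sex and the other factor. Correlations used 100000 permutations on log2(CPM + 1) after TMM scaling (scipy 1.17.1, numpy 2.4.6). The named genes are the 8 members in every comparison, the 2 genes most correlated with each among named genes that averaged 1 FPKM or more, and genes from lists of receptors, peptide processing, other neuropeptides, nociceptor, itch and cell type genes. The members and lists were chosen with earlier results of these data known. The values of 1 gene of the nociceptor list are not reported here. *Xist*, the Y-linked genes and *Eif2s3x* were read after the data were seen. On simulated counts for the same libraries, the edgeR fit recovered 78% of 200 genes changed 2-fold and 96% of those changed 4-fold by PTX in WT mice, and 87.5% and 99% between sexes. It also called 9 and 13 unchanged genes for PTX, and 10 and 14 between sexes. The spread was set by expression level alone, with no outlying library. The members' ratios after PTX in WT mice, 0.776 (*Adcyap1*) to 1.53 (*Sst*), were smaller changes than those simulated, so the shares recovered do not apply to them. Promoter sequences are from RefSeq on GRCm38.p6, where 7 of the 8 members matched by symbol, and transcripts and gene overlaps are from GENCODE M21. Counting intervals are not given, since the spread between mice exceeds them.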

Additional observations from a re-analysis of the deposited data

Results flagged for a closer look

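In groups of 4 to 7 mice pooled by label (sex, genotype or treatment), a library was marked where its gap to the next one was large against the range of the group. Of 48 such groups of values, 7 were marked, and chance marks about 1 in 20. *Tac1* in WT control 2, at 94.3 FPKM, was far above the next library, at 70.0 FPKM, both among the 7 males and among the 6 controls. *Adcyap1* in the same mouse, at 48.4 FPKM, was far above the next of the males (31.4 FPKM) and of the controls (27.9 FPKM). *Nmb* in WT control 1, at 122 FPKM, stood above the next male, at 106 FPKM. Among the 5 KO mice, KO PTX 3 was far below the others for *Tac1* (41.6 FPKM against 63.2 FPKM) and for *Calcb* (70.7 FPKM against 83.2 FPKM).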

How the results depend on the processing

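Over 23 alternative settings, no member was called in any comparison except by DESeq2 between the labelled sexes, where it called 2, *Calca* (log2 fold change -0.32) and *Tac1* (-0.37), and 3 without KO control 3. Of 1360 gene values under an alternative, 79 changed sign, none of them past the threshold in either fit. *Cartpt* after PTX in WT mice reversed from -0.34 to 0.078 without WT PTX 3 (-0.80 to 0.078 over the mice left out) and to 0.061 in male mice alone, and *Tac1* after PTX in KO mice reversed from -0.19 to 0.012 without KO PTX 3 (-0.42 to 0.012 over the mice left out) and to 0.092 in male mice alone, and the cause was not tested. With each mouse left out, the log2 fold change after PTX in WT mice ran from -0.40 to -0.20 for *Calca*, from -0.44 to -0.21 for *Tac1*, from -0.54 to -0.07 for *Adcyap1* and from 0.29 to 1.04 for *Sst*, with the extremes set by WT control 1 and WT control 2. With a replicate block in place of sex, the values were -0.32 for *Calca* (adjusted p = 0.282), -0.34 for *Tac1* and 0.71 for *Sst* (adjusted p = 0.329), and no member was called. Same-numbered mice correlated at -0.21 to 0.25 (mean 0.08) and differently numbered mice at -0.25 to 0.22 (mean -0.04), so the numbers were not taken to pair them. Between the mice of replicate number 3, those labelled female, the values ran from 0.06 to 0.25. Over all genes, calls for PTX in WT mice were 1 in edgeR, 309 in DESeq2 and 0 in limma and in male mice alone. They were 7 without WT control 2 and 30 without WT control 3, and none was a member. Only 2 KO PTX mice were available, and where 1 was left out the other was assumed to vary like the rest of the groups.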
